A study of Mus musculus with 10 samples.

Results

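The genes described here are 9 matrix metalloproteinase genes (Mmp2, Mmp3, Mmp7, Mmp8, Mmp9, Mmp10, Mmp12, Mmp13 and Mmp14) and Timp1, which encodes a metalloproteinase inhibitor. They were taken by gene symbol from a read count table of mouse colon RNA, and make up 10 of its 29320 genes. All 10 had enough reads to be tested. Matrix metalloproteinases are zinc enzymes that are secreted or held on the cell surface, mostly as inactive precursors, and that cut collagens, elastin, proteoglycans and many signalling proteins. The tissue inhibitors of metalloproteinases bind their active sites. In the inflamed gut these enzymes are known from fibroblasts, macrophages, neutrophils and injured epithelium, and much of their control lies at transcription, through cytokines and AP-1 factors.

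The study compared the colons of WT mice and of mice lacking ERdj5, a disulfide reductase of the endoplasmic reticulum encoded by Dnajc10. The mice were 8-week-old females, sampled on Day 5, either untreated or given 2% dextran sulfate sodium (DSS), a polysaccharide that injures the colon epithelium, in drinking water for 5 days. Day 5 is the labels' wording; the colitis protocol in the study's methods goes on with plain water after DSS and ends later, and names no sampling day for the sequenced colons. There were 2 libraries of untreated WT (numbered 2 and 3), 3 of DSS-treated WT (2, 3 and 4), 2 of untreated ERdj5-KO (2 and 3) and 3 of DSS-treated ERdj5-KO colon (1, 2 and 4). The WT (C57BL/6) and KO mice were bought from different sources, littermates are not mentioned, and nothing ties a library to a single mouse, so the tests gauge only how libraries vary. The libraries held 49689389 to 72197887 counted reads. Levels are given as CPM (reads relative to library size, TMM-scaled). Fold changes come from edgeR's quasi-likelihood test on 20472 genes with Benjamini-Hochberg adjustment over all of them, and a gene is said to have risen or fallen at an adjusted p under 0.05. Dnajc10 was at 113 to 140 CPM in the WT and 18.4 to 30.4 CPM in the KO libraries.

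The genes lie on 5 chromosomes of GRCm38.p6, the build of mm10. Mmp13, Mmp12, Mmp3, Mmp10, Mmp8 and Mmp7 sit in this order on chromosome 9, from 7272514 to 7699585. That 427.1 kb stretch holds 10 annotated Mmp genes. Mmp9 lies on chromosome 2 (164940326 to 164955850), Mmp2 on chromosome 8 (92827290 to 92853421), Mmp14 on chromosome 14 (54431598 to 54442456) and Timp1 on the X chromosome (20870166 to 20874737). RefSeq start-site windows of this build (250 bases before to 50 after each start) were given for 8 of the 10 genes, not for Mmp2 and Mmp9, with a pair of starts each for Mmp12 and Mmp7. The AP-1 motif TGANTCA, searched on both strands, occurred in 5 of these 10 windows and in 7.81% of 32851 mouse windows. The TATA box letters TATAAA, at any position and on either strand, occurred in 6 of the 10, against 13.6% of all windows. The ETS motif AGGAAG occurred in 8 of the 10, against 35.4%. All 5 windows with an AP-1 motif belonged to the cluster on chromosome 9, and no match was found in the windows of Mmp8, Mmp14 or Timp1. These are matches of letters, not measured binding. The 5 AP-1 windows, and that of Mmp8 as the cluster member without one, are printed 5′ to 3′ on the gene's strand from position -80 to 10, with position 1 at the annotated start and with AP-1 and TATA matches on either strand in capitals.
Mmp13, chr9:7272434-7272523, plus strand: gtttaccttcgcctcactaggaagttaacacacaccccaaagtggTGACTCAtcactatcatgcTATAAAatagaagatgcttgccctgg
Mmp12, second start, chr9:7347294-7347383, plus strand: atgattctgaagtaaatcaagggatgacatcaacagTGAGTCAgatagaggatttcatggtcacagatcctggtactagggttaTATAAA
Mmp3, chr9:7445742-7445831, plus strand: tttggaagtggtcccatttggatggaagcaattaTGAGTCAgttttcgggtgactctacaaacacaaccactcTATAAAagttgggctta
Mmp10, chr9:7502262-7502351, plus strand: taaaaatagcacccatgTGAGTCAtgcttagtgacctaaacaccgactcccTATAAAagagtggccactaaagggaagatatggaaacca
Mmp7, first start, chr9:7692010-7692099, plus strand: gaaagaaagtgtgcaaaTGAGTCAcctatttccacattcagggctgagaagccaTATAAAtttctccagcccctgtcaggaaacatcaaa
Mmp8, chr9:7558349-7558438, plus strand: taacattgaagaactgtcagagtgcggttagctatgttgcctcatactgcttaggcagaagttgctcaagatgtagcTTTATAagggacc
The AP-1 match lay between positions -63 and -29 in all 5 windows, from -35 to -29 in Mmp13 and from -63 to -57 in both Mmp10 and Mmp7. The printed TATA match began at -29 in Mmp10, -26 in Mmp7, -16 in Mmp13 and -7 in Mmp3. In Mmp12 it lay after the start, from 5 to 10. In Mmp8 it was on the minus strand and spanned the start, from -3 to 3.

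In DSS-treated mice, 7 of the 10 genes were higher in ERdj5-KO than in WT colon and none was lower. They were the collagenases Mmp13 and Mmp8, the stromelysins Mmp3 and Mmp10, the elastase Mmp12, the gelatinase Mmp9 and the membrane-bound Mmp14. Timp1, Mmp7 and Mmp2 did not pass the test. Among all tested genes 14.9% rose and 14.9% fell in this comparison. The median log2 fold change of the 10 genes was 2.63, beside -0.04 over all tested genes. Each of the 7 genes was higher in every KO library than in every WT library, an order that 20.6% of all tested genes showed, and the other 3 overlapped. In whole tissue, more cells of a type and more RNA per cell cannot be told apart.

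**Figure D1:**
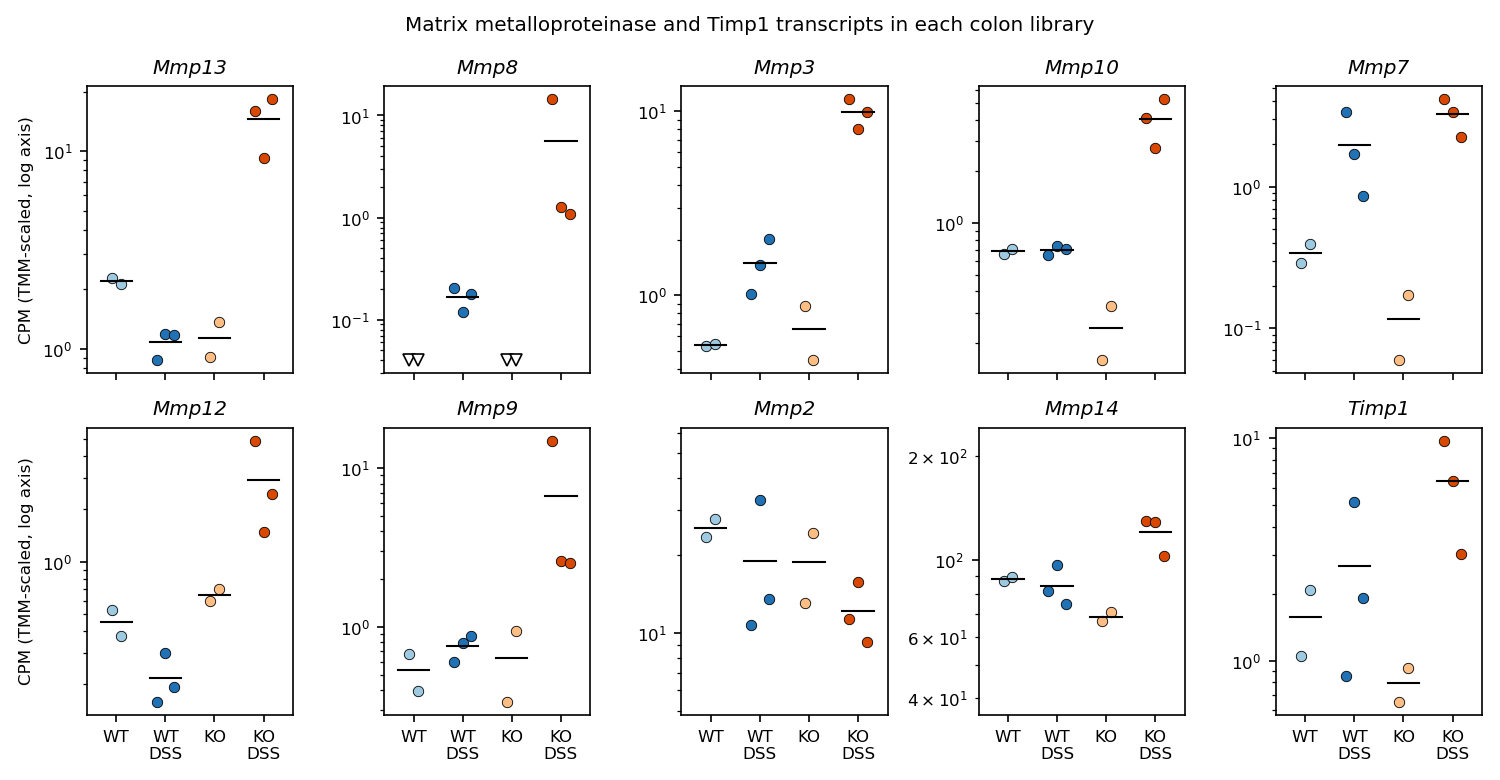
Level of each gene in CPM (TMM-scaled, log axis, with its own range per gene) in every library of the 4 groups; circles are libraries, black lines group means, and open triangles libraries without a read. The DSS-treated KO libraries of Mmp13 sit between 9.26 and 18.4 CPM, above the other 7 libraries at 0.872 to 2.28 CPM.

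Mmp13 (gene ID 17386), the main fibrillar collagenase of mice, was at 2.28 and 2.12 CPM in untreated WT and 0.872, 1.19 and 1.17 CPM in DSS-treated WT colon. It was at 0.910 and 1.36 CPM in untreated KO and 15.9, 9.26 and 18.4 CPM in DSS-treated KO colon. The 3 DSS-treated KO libraries were thus the highest of all 10, while those of DSS-treated WT lay below untreated WT. The log2 fold change between DSS-treated KO and WT was 3.75 (SE 0.30, n = 3 libraries per group, edgeR adjusted p = 0.0002). Within KO mice Mmp13 rose with DSS by a log2 fold change of 3.67 (SE 0.35, edgeR adjusted p = 0.000109). The change with DSS in WT mice, -1.03 on the log2 scale (SE 0.31, unadjusted p = 0.00774, edgeR adjusted p = 0.509), did not pass.

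Mmp3 (gene ID 17392) encodes stromelysin, which cuts proteoglycans, laminin and fibronectin and activates other metalloproteinase precursors. It was at 0.531 and 0.542 CPM in untreated WT, 1.02, 1.46 and 2.02 CPM in DSS-treated WT, 0.870 and 0.443 CPM in untreated KO and 11.7, 8.02 and 9.97 CPM in DSS-treated KO colon. The DSS-treated KO libraries again lay above all others, and the DSS-treated WT libraries lay above every untreated library. Its log2 fold change in DSS-treated KO against WT mice was 2.72 (SE 0.32, edgeR adjusted p = 0.00084).

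Mmp10 (gene ID 17384), the second stromelysin, was at 0.659 and 0.707 CPM in untreated WT and hardly differed in DSS-treated WT colon (0.650, 0.736 and 0.700 CPM). It was at 0.158 and 0.329 CPM in untreated KO and 4.11, 2.73 and 5.28 CPM in DSS-treated KO colon. These KO groups held the lowest and the highest libraries of the gene. Its log2 fold change was 2.53 between DSS-treated KO and WT mice (SE 0.32, edgeR adjusted p = 0.00114) and 4.01 between DSS-treated and untreated KO mice (SE 0.42, edgeR adjusted p = 0.000141). Mmp3 and Mmp10 are paralogs. Of the different 50-base stretches in their annotated transcripts, 8.39% of those of Mmp3 and 8.37% of those of Mmp10 also occurred in another gene, which for Mmp10 was Mmp3 alone, so reads from these stretches are uncertain.

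Mmp12 (gene ID 17381), the elastase of macrophages, was at 0.531 and 0.378 CPM in untreated WT, 0.159, 0.301 and 0.192 CPM in DSS-treated WT, 0.593 and 0.701 CPM in untreated KO and 4.89, 1.47 and 2.44 CPM in DSS-treated KO colon. The DSS-treated WT libraries were the lowest 3 of the 10 and the DSS-treated KO libraries the highest 3. DSS-treated KO exceeded WT mice by a log2 fold change of 3.75 (SE 0.49, edgeR adjusted p = 0.00124), and by 3.15 without KO library 1 (SE 0.40, edgeR adjusted p = 0.0018). None of the 8 macrophage markers examined (among them Adgre1, Csf1r and C1qa) passed the test in this comparison, and none was at 0 in any group. Of all tested genes 14.9% rose and 14.9% fell. The summed level of the markers was 98.8 to 191 CPM in DSS-treated KO and 153 to 310 CPM in DSS-treated WT colon. Without DSS-treated WT library 2, 3 of the markers fell. The part of macrophage number in the Mmp12 values was not tested.

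Mmp8 (gene ID 17394) encodes a collagenase stored in the granules of neutrophils. It had no read in any of the 4 untreated libraries, which at this depth allows 3 counts per group. DSS-treated WT colon had 0.206, 0.120 and 0.179 CPM and DSS-treated KO colon 14.5, 1.27 and 1.09 CPM. DSS-treated KO library 1 stood far above the other KO libraries, which were themselves above all WT libraries. The log2 fold change between DSS-treated KO and WT mice was 5.05 (SE 1.14, edgeR adjusted p = 0.0153), and 2.79 without KO library 1 (SE 0.46, edgeR adjusted p = 0.00705). Leaving out DSS-treated WT library 3 (edgeR adjusted p = 0.0645) or library 4 (edgeR adjusted p = 0.053) ended this call. DSS-treated KO colon held at least 256.5-fold more Mmp8 than untreated KO colon, from its pooled DSS-treated level and a floor of 3 counts over the untreated group, which covers counting error only (edgeR adjusted p = 0.00623). This bound rests on KO library 1, and without it is 47.9-fold (edgeR adjusted p = 0.000666). In WT mice it was at least 6.89-fold higher with DSS on the same floor and did not pass the test (edgeR adjusted p = 0.747).

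Mmp9 (gene ID 17395), a gelatinase that neutrophils and macrophages secrete, was at 0.675 and 0.394 CPM in untreated WT, 0.603, 0.797 and 0.879 CPM in DSS-treated WT, 0.336 and 0.944 CPM in untreated KO and 14.9, 2.61 and 2.52 CPM in DSS-treated KO colon. As for Mmp8, KO library 1 was the highest and the other DSS-treated KO libraries also lay above the rest. Between DSS-treated KO and WT mice the log2 fold change was 3.14 (SE 0.72, edgeR adjusted p = 0.0116), and 1.75 without KO library 1 (SE 0.42, edgeR adjusted p = 0.018).

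Neutrophil markers moved in the same libraries. Of 8 tested markers, 6 rose in DSS-treated KO against WT colon and none fell, also with each library of these groups left out. In this comparison 14.9% of all tested genes rose. S100a9, a calcium-binding protein of neutrophils, rose by 6.89 on the log2 scale (SE 0.87, edgeR adjusted p = 0.00111) and its partner S100a8 by 6.49 (SE 0.96, edgeR adjusted p = 0.00241). The summed level of the 8 markers was 226 to 329 CPM in DSS-treated WT and 361 to 867 CPM in DSS-treated KO colon. Ly6g, which did not pass, gave most of it in each of these libraries other than DSS-treated KO library 1, where it was at 379 CPM. Without Ly6g, a choice made after its values were seen, the sums were 7.71 to 8.67 CPM in DSS-treated WT and 487, 77.1 and 102 CPM in DSS-treated KO libraries 1, 2 and 4, so library 1 was again the highest. Retnlg was at 0 in both untreated groups, and S100a8 and Cxcr2 were at 0 in untreated KO colon. The part of neutrophil number in the Mmp8 and Mmp9 values was not tested.

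Mmp14 (gene ID 17387) encodes a collagenase held in the cell membrane that also activates the Mmp2 precursor. It was the most abundant of the member enzymes described here and changed over a narrow range. It was at 87.4 and 89.7 CPM in untreated WT, 81.8, 96.9 and 74.8 CPM in DSS-treated WT, 66.7 and 71.0 CPM in untreated KO and 130, 129 and 103 CPM in DSS-treated KO colon. All DSS-treated KO libraries lay above, and both untreated KO libraries below, every other library. DSS-treated KO mice exceeded WT mice by a log2 fold change of 0.51 (SE 0.12, edgeR adjusted p = 0.0141). With libraries scaled by their totals alone it was 0.46 and missed the threshold (edgeR adjusted p = 0.0517).

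Mmp2 (gene ID 17390), the gelatinase made by fibroblasts and other stromal cells, did not follow the others. It was at 23.5 and 27.8 CPM in untreated WT, 10.8, 32.7 and 13.5 CPM in DSS-treated WT, 13.1 and 24.6 CPM in untreated KO and 11.3, 15.8 and 9.21 CPM in DSS-treated KO colon. All 4 groups overlapped with at least 1 other group, and the highest library was DSS-treated WT library 3. Its log2 fold change was -0.65 in DSS-treated KO against WT mice (SE 0.41, edgeR adjusted p = 0.256) and -0.63 in DSS-treated against untreated KO mice (SE 0.45, edgeR adjusted p = 0.273). Without DSS-treated WT library 3 the value against WT mice was -0.00044 (SE 0.30, edgeR adjusted p = 1).

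Timp1 (gene ID 21857), which inhibits most secreted metalloproteinases, was at 1.05 and 2.09 CPM in untreated WT, 0.857, 5.19 and 1.92 CPM in DSS-treated WT, 0.653 and 0.930 CPM in untreated KO and 9.74, 6.41 and 3.03 CPM in DSS-treated KO colon. DSS-treated WT library 3 was again the highest of its group and overlapped with the KO libraries. The log2 fold change in DSS-treated KO against WT mice was 1.27 (SE 0.62, edgeR adjusted p = 0.149) and did not pass. It was 2.20 without DSS-treated WT library 3 and then passed (SE 0.58, edgeR adjusted p = 0.0366). Within KO mice Timp1 rose with DSS, by a log2 fold change of 3.01 (SE 0.79, edgeR adjusted p = 0.0122). That call was lost without untreated KO library 2 (edgeR adjusted p = 0.0836) or library 3 (edgeR adjusted p = 0.063).

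Mmp7 (gene ID 17393) encodes matrilysin, an epithelial metalloproteinase that in mouse Paneth cells activates defensins. It was at 0.289 and 0.394 CPM in untreated WT, 3.36, 1.71 and 0.865 CPM in DSS-treated WT, 0.0593 and 0.172 CPM in untreated KO and 4.15, 3.38 and 2.25 CPM in DSS-treated KO colon. The DSS-treated libraries of both genotypes overlapped, and all 6 lay above the 4 untreated ones. The log2 fold change of DSS-treated KO against WT was 0.72 (SE 0.47, edgeR adjusted p = 0.273). Within KO mice it was 4.74 (SE 0.71, edgeR adjusted p = 0.00075), and within WT mice 2.52 (SE 0.61, unadjusted p = 0.00229, edgeR adjusted p = 0.428). The Paneth cell markers Lyz1 and Itln1 did not differ beyond their spread between DSS-treated KO and WT colon (log2 fold changes 0.16 and 0.10, edgeR adjusted p = 0.833 and 0.86). In GENCODE vM21, exons of Mmp7 overlap those of AV064505 and exons of Mmp12 overlap those of Mmp1b, each on the opposite strand. The RefSeq spans of Mmp12 (7344397 to 7360461) and Mmp1b (7367670 to 7388026) do not overlap. Whether the counting used strand is not given, so reads from overlapping exons cannot be told apart.

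In WT mice, none of the 10 genes passed the test between DSS-treated and untreated colon. The whole table held 5 such genes, with 0.0195% of tested genes rising and 0.00488% falling. Mmp3, Mmp7 and Mmp13 had an unadjusted p under 0.05, a threshold for which the share of all genes was not counted. Mmp3 had a log2 fold change of 1.48 (SE 0.38, unadjusted p = 0.00307, edgeR adjusted p = 0.446). DESeq2 called Mmp3 (adjusted p = 0.0254) and Mmp7 (adjusted p = 0.00615), and no other member, beside 0.576% of all 29320 genes in either direction. The median log2 fold change of the 10 genes was 0.27, beside 0.00 over all genes.

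In ERdj5-KO mice, 9 of the 10 genes rose with DSS and Mmp2 was the exception. In this comparison 23.1% of all tested genes rose and 22.3% fell. The median log2 fold change of the 10 genes was 3.51, beside 0.02 over all genes. Beyond those given for each gene above, the log2 fold change was 3.92 for Mmp3 (SE 0.41, edgeR adjusted p = 0.00014), 3.36 for Mmp9 (SE 0.87, edgeR adjusted p = 0.0111), 2.18 for Mmp12 (SE 0.52, edgeR adjusted p = 0.00762) and 0.81 for Mmp14 (SE 0.14, edgeR adjusted p = 0.00164). The count was 6 without untreated KO library 2, when Mmp9 (edgeR adjusted p = 0.0826), Mmp12 (edgeR adjusted p = 0.0577) and Timp1 no longer passed. Without DSS-treated KO library 1 the log2 fold change was 1.94 for Mmp9 (edgeR adjusted p = 0.012) and 1.55 for Mmp12 (edgeR adjusted p = 0.017). Without untreated KO library 3 it was 4.31 for Mmp9 (edgeR adjusted p = 0.0351), 5.74 for Mmp7 (edgeR adjusted p = 0.00654) and 4.66 for Mmp10 (edgeR adjusted p = 0.00141). This comparison shares its DSS-treated KO libraries with that between the genotypes.

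Markers of several cell types also moved between these KO groups, where 23.1% of all tested genes rose and 22.3% fell. All 6 smooth muscle markers fell, from a summed 8052 to 9642 CPM in untreated to 453 to 794 CPM in DSS-treated KO libraries. Of 8 neutrophil markers 7 rose, and Ly6g did not pass (log2 fold change 0.08, edgeR adjusted p = 0.764). The sum of all 8 was 316 to 351 CPM in untreated and 361 to 867 CPM in DSS-treated KO libraries. With Ly6g left out, a choice made after its values were seen, it was 1.25 and 0.701 CPM in untreated and 77.1 to 487 CPM in DSS-treated KO libraries. Of 8 fibroblast markers 5 fell (218.5 to 368.9 against 96.1 to 158 CPM). Of 8 macrophage markers 2 rose, near the share of all genes, and their sums overlapped (72.8 to 108 against 98.8 to 191 CPM). The part of these cell types in the rise of the 9 genes was not tested.

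Between untreated KO and untreated WT colon, none of the genes passed the test, where 3.87% of all tested genes were higher and 5.97% lower. The KO libraries lay below both WT libraries for Mmp7, Mmp10, Mmp13, Mmp14 and Timp1, and above them for Mmp12. How many of all tested genes showed such an order between these groups was not counted, so it is given as values only. An unadjusted p under 0.05 was reached by Mmp10 (log2 fold change -1.45, SE 0.42, unadjusted p = 0.00672, edgeR adjusted p = 0.0584), Mmp13 (-0.95, SE 0.34, unadjusted p = 0.0212, edgeR adjusted p = 0.114) and Mmp14 (-0.36, SE 0.15, unadjusted p = 0.0375, edgeR adjusted p = 0.16). The share of all genes at that threshold was not counted. Among the members DESeq2 called Mmp10 alone (adjusted p = 0.026), beside 11.6% of all genes in either direction. Mmp8 has no fold here, both groups being at 0. Of the 8 macrophage markers 6 were lower in untreated KO colon, with sums of 72.8 to 108 CPM against 293.5 to 335.5 CPM in untreated WT, and 3 of the 6 smooth muscle markers were higher (8052 to 9642 against 2638 to 4160 CPM). Their part in these values was not tested.

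The response to DSS was then compared between the genotypes as an interaction, the KO log2 response minus the WT response. It passed for 5 genes, all with the higher response in KO mice. Their WT changes with DSS, none of which passed, were -1.06 for Mmp12, -1.03 for Mmp13, -0.07 for Mmp14, 0.03 for Mmp10 and 1.48 for Mmp3. Among all tested genes, 13.8% had a higher and 13% a lower response in KO mice. The difference in log2 response was 4.70 for Mmp13 (SE 0.46, edgeR adjusted p = 0.000813), 3.98 for Mmp10 (SE 0.53, edgeR adjusted p = 0.00171), 3.24 for Mmp12 (SE 0.73, edgeR adjusted p = 0.0118), 2.45 for Mmp3 (SE 0.52, edgeR adjusted p = 0.00909) and 0.87 for Mmp14 (SE 0.19, edgeR adjusted p = 0.0112). For Mmp10, Mmp13 and Mmp14 the difference holds an untreated KO level below that of WT as well as a DSS-treated level above it. Mmp9 (2.86, SE 1.13, edgeR adjusted p = 0.0897) and Mmp7 (2.21, SE 0.88, edgeR adjusted p = 0.0902) did not pass. Timp1 (2.24, SE 1.01, edgeR adjusted p = 0.128) and Mmp2 (-0.20, SE 0.64, edgeR adjusted p = 0.845) did not pass either. No value is given for Mmp8, which had no read in either untreated group. The difference was 2.61 for Mmp12 without DSS-treated KO library 1 (edgeR adjusted p = 0.0129) and 4.63 for Mmp10 without untreated KO library 3 (edgeR adjusted p = 0.00795). DESeq2, counted over all members with Mmp8 included, called 8, beside 22% of all genes in either direction. The median over the 9 genes with a value was 2.45, beside 0.01 over all genes.

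**Figure D2:**
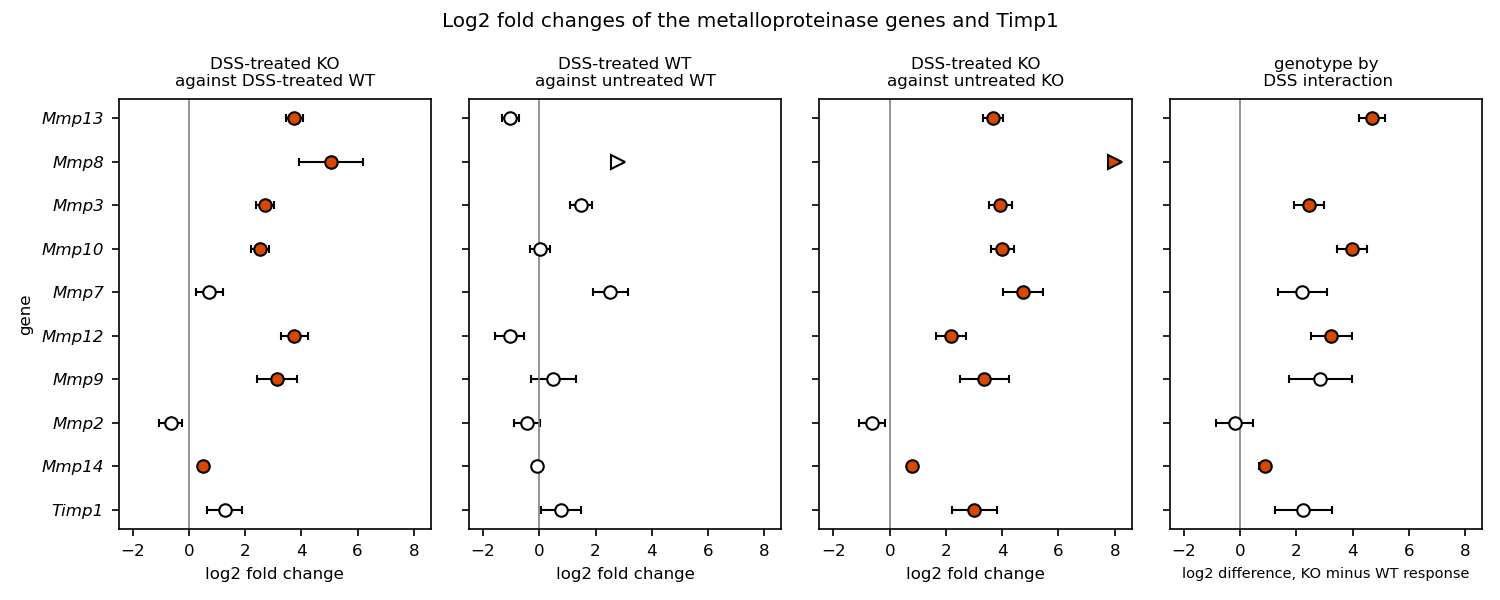
Log2 fold changes with their standard errors in 3 comparisons and, at the right, the difference between the log2 responses of KO and WT mice. Orange marks an edgeR adjusted p under 0.05, and a triangle marks Mmp8 where the untreated group had no read, at the log2 of the lower bound. In DSS-treated KO against WT mice 7 genes are orange, in DSS-treated against untreated WT none.

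Levels of the 10 genes were compared as CPM per kilobase of each gene's longest principal transcript in GENCODE vM21 (883 bases for Timp1 to 3607 for Mmp12). Mmp14 was first in every group, at 34.1 ± 0.63 CPM per kilobase in untreated WT (SD, n = 2), 32.5 ± 4.36 in DSS-treated WT (SD, n = 3), 26.5 ± 1.19 in untreated KO (SD, n = 2) and 46.3 ± 5.88 in DSS-treated KO colon (SD, n = 3). Mmp2 was second in both untreated groups, at 8.34 ± 0.99 CPM per kilobase in WT and 6.11 ± 2.64 in KO colon (SD, n = 2), followed by Timp1 at 1.77 ± 0.83 and 0.896 ± 0.22. The other enzymes were at 0.824 CPM per kilobase or lower on average there. In DSS-treated KO colon Timp1 (7.24 ± 3.80 CPM per kilobase), Mmp3 (5.49 ± 1.01), Mmp13 (5.43 ± 1.76), Mmp2 (3.94 ± 1.10) and Mmp7 (3.05 ± 0.90) came after Mmp14 (SD, n = 3), and each overlapped with the next in this order. Mmp12 was last of the 10, at 0.814 ± 0.49 CPM per kilobase.

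The makeup of the transcripts of these 9 metalloproteinases differed in the same libraries. Other metalloproteinase genes, such as Mmp15, were not counted in these sums. The 7 enzymes other than Mmp14 and Mmp2 made up 4.98% and 4.60% of the summed CPM per kilobase of the 9 enzymes in untreated WT libraries and 3.98% and 4.33% in untreated KO libraries. They made up 11.9%, 7.11% and 8.74% in DSS-treated WT and 36.4%, 20.9% and 31.4% in DSS-treated KO libraries. No DSS-treated KO library overlapped with another group. The sum itself was 84.3, 69.1 and 62.1 CPM per kilobase in DSS-treated KO and 39.7, 51.6 and 36.4 in DSS-treated WT libraries. Divided by the level of Timp1 it was 7.64, 9.52 and 18.1 in DSS-treated KO and 40.9, 8.79 and 16.7 in DSS-treated WT libraries, which overlapped.

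**Figure D3:**
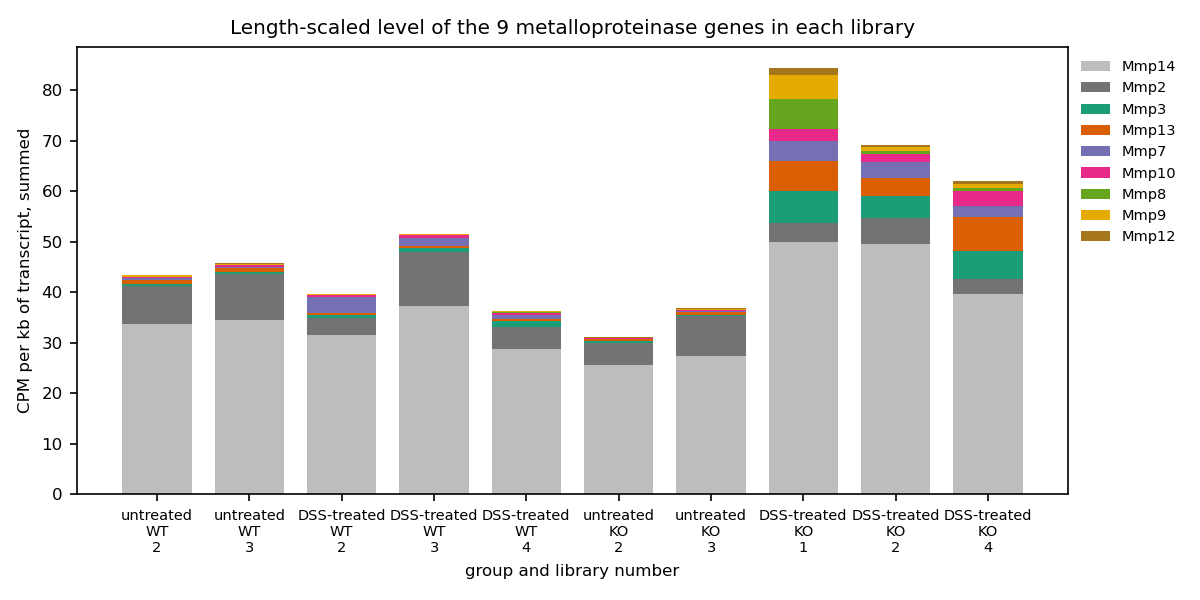
Level of the 9 metalloproteinase genes in CPM per kilobase of transcript, stacked, in each of the 10 libraries, ordered by group and library number. The coloured segments, the 7 enzymes other than Mmp14 and Mmp2 (greys), make up 20.9% to 36.4% of the bar in DSS-treated KO and 7.11% to 11.9% in DSS-treated WT libraries.

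Of 10 other metalloproteinase genes tested, 1 rose and 1 fell between DSS-treated KO and WT colon, beside 14.9% of all tested genes in each direction. Their median log2 fold change was -0.43. Mmp15 did not pass (log2 fold change -0.18, edgeR adjusted p = 0.609). By mean CPM Mmp15 stood above Mmp14 in DSS-treated WT (114 against 84.5) and untreated KO colon (131 against 68.8). It stood below Mmp14 in untreated WT (75.8 against 88.6) and DSS-treated KO colon (100 against 120). These values are not scaled by length. Mmp28, the epithelial enzyme epilysin, was at 7.04 to 7.67 CPM in DSS-treated WT and 16.9 to 20.6 CPM in DSS-treated KO libraries (log2 fold change 1.36, SE 0.17, edgeR adjusted p = 0.00118). Mmp17, a lipid-anchored surface enzyme, was at 3.79 to 6.55 CPM in DSS-treated WT and 0.715 to 1.88 CPM in DSS-treated KO libraries (log2 fold change -1.90, SE 0.34, edgeR adjusted p = 0.00428). Mmp1a, Mmp1b and Mmp21 were not analysed here.

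Most inhibitors other than Timp1 were lower in DSS-treated KO colon. Of 5 tested, 4 fell and none rose, beside 14.9% of all genes falling. A2m did not pass, with a log2 fold change of 1.39 (SE 1.34, edgeR adjusted p = 0.458). Timp3, the inhibitor that binds to the matrix, went from 36.8, 66.8 and 54.1 CPM in DSS-treated WT to 26.0, 24.9 and 20.3 CPM in DSS-treated KO libraries, with no overlap (log2 fold change -1.15, SE 0.20, edgeR adjusted p = 0.00399). Reck, an inhibitor anchored in the cell membrane, went from 2.92, 6.34 and 5.04 CPM to 1.73, 1.76 and 1.03 CPM (log2 fold change -1.66, SE 0.33, edgeR adjusted p = 0.00637). Timp4 (log2 fold change -1.23, edgeR adjusted p = 0.0271) and Timp2, which takes part in the activation of Mmp2 by Mmp14 (log2 fold change -1.01, edgeR adjusted p = 0.0423), were the others, and the groups of Timp2 overlapped. Between 2 and 3 of the 4 still passed when a library of these groups was left out, with 2 left without DSS-treated WT library 3 or KO library 4.

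These falls stood beside falls of stromal markers, in a comparison where 14.9% of all tested genes fell. All 6 smooth muscle markers fell (Myh11, log2 fold change -2.84, SE 0.29, edgeR adjusted p = 0.000535), and their summed level was 2324 to 4267 CPM in DSS-treated WT and 453 to 794 CPM in DSS-treated KO libraries. Of 8 fibroblast markers, 5 fell (Fap, log2 fold change -1.58, SE 0.28, edgeR adjusted p = 0.00405), with sums of 128 to 340 and 96.1 to 158 CPM. Only 1 of the fibroblast markers still passed without DSS-treated WT library 3. That library, the highest DSS-treated WT library for Mmp2, Mmp14 and Timp1, also had the highest sums of its group for both marker lists. No marker of either list was at 0 in any group. The part of tissue makeup in these values was not tested. Of 8 epithelial markers, 2 rose (Cdx2 and Krt18), beside 14.9% of all tested genes rising. Their sum was 13760 to 15160 CPM in DSS-treated WT and 12000 to 18120 CPM in DSS-treated KO libraries.

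Among genes that act on the precursors, 2 of 7 tested rose and none fell, beside 14.9% of all tested genes in each direction. Plaur, the receptor of urokinase, was at 4.69 to 8.40 CPM in DSS-treated WT and 25.9 to 48.7 CPM in DSS-treated KO libraries (log2 fold change 2.49, SE 0.28, edgeR adjusted p = 0.000752). Plat, the tissue plasminogen activator, was at 4.89 to 6.46 and 24.2 to 68.0 CPM (log2 fold change 2.76, SE 0.40, edgeR adjusted p = 0.00176). Plasmin, which these genes help to form, can activate metalloproteinase precursors. Of 13 ADAM and ADAMTS proteases, relatives with a similar zinc site, 2 rose and 2 fell, beside 14.9% of all genes in each direction. With a library of these groups left out, 1 to 2 rose and 0 to 3 fell. Adamts4, an aggrecanase, had a log2 fold change of 2.69 (SE 0.33, edgeR adjusted p = 0.00101) and Adam8 one of 1.30 (SE 0.39, edgeR adjusted p = 0.032). Adam19 fell by 0.82 on the log2 scale (edgeR adjusted p = 0.0383) and Adam15 by 0.48 (edgeR adjusted p = 0.0444).

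Cytokines known to induce metalloproteinases were higher in DSS-treated KO colon. Of 8 tested, 7 rose and none fell, with a median log2 fold change of 2.88, beside 14.9% of all tested genes rising. Il1a was at 0.466 to 0.906 CPM in DSS-treated WT and 4.67 to 23.5 CPM in DSS-treated KO libraries (log2 fold change 3.98, SE 0.65, edgeR adjusted p = 0.0028). Il11 (log2 fold change 2.32, SE 0.48, edgeR adjusted p = 0.00768), Il1b (2.59, SE 0.63, edgeR adjusted p = 0.0149) and Osm (3.18, SE 0.81, edgeR adjusted p = 0.0171) were also among them. Without DSS-treated WT library 3, 2 of the 8 passed.

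Of 12 AP-1, ETS and RUNX factors, 1 rose and 2 fell, beside 14.9% of all tested genes in each direction. Junb had a log2 fold change of 0.66 (SE 0.16, edgeR adjusted p = 0.0158), Fosb one of -1.26 (SE 0.28, edgeR adjusted p = 0.0106) and Runx2 one of -1.14 (SE 0.35, edgeR adjusted p = 0.0357). Of 15 matrix substrates, none rose and 2 fell, beside 14.9% of all tested genes in each direction, so the falls were near that share. The substrates that fell were the basement membrane proteoglycan Hspg2 (log2 fold change -1.26, SE 0.23, edgeR adjusted p = 0.0043) and fibronectin, Fn1 (-1.50, SE 0.40, edgeR adjusted p = 0.0205). Without DSS-treated WT library 2, 5 matrix substrates fell, and without DSS-treated WT library 3 or KO library 4, 1 did.

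**Figure D4:**
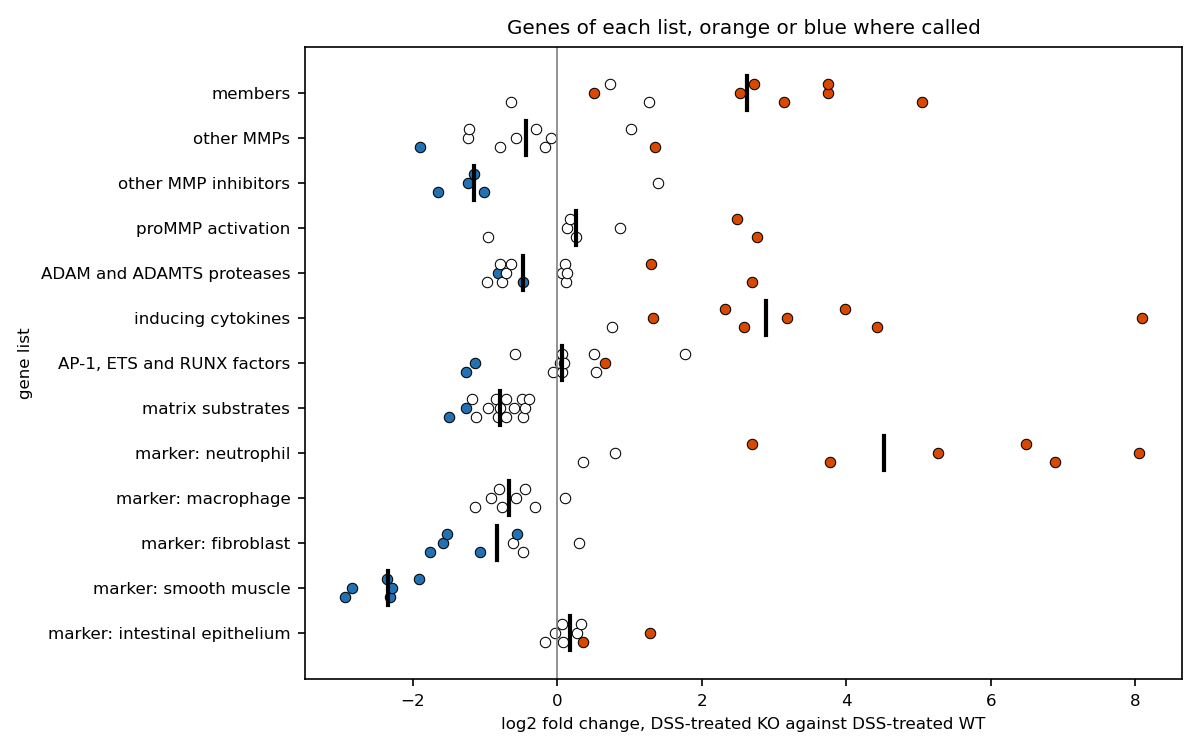
Log2 fold change of each tested gene in DSS-treated KO against DSS-treated WT colon, by gene list, with the 9 metalloproteinases and Timp1 as members. Orange circles rose and blue circles fell (edgeR adjusted p under 0.05), open circles did not pass, and black lines are list medians, 2.63 for the members and -1.15 for the other inhibitors.

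The profile of each gene over the 10 libraries was also compared with those of 12443 genes with a mean log2 CPM of 1 or more, by the root mean square difference of centred log2 CPM. The nearest genes to Mmp13 were Plaur (0.60), C2cd4b (0.70) and Lpcat4 (0.74). Those to Mmp3 were Cwh43 (0.42), Aldh1a3 (0.57) and Clca3b (0.60), and those to Mmp9 were Il33 (0.51), Plat (0.63) and Lcn2 (0.66). Mmp2 lay nearest to Lamb1 (0.14), Col1a2 (0.18) and Csf1 (0.19), which include the matrix genes for a laminin and a collagen chain. Timp1 lay nearest to Ifitm1 (0.50), Emilin2 (0.54) and Tnfrsf23 (0.60). Mmp14 was followed by Anxa5, Urm1 and Timm22 (0.11 each). Small differences come more easily to genes that vary little, such as Mmp14. Between members, the nearest pair was Mmp10 and Mmp13 (0.61) and the next Mmp12 and Mmp13 (0.69), while Mmp2 and Mmp8 lay farthest apart (3.22). The last value depends on a count of 2, scaled to library size, that was added before taking logs, as Mmp8 had no read in any untreated library. All points share the same 10 libraries.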

How the data were processed

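RNA of mouse colon was sequenced from libraries made with a stranded mRNA kit. The authors deposited gene-level read counts of each library in 1 table. Tools named in the submitters' processing notes are StringTie 2.1.3b, Bowtie2 2.3.4.1, HISAT2 2.1.0 and Trimmomatic 0.38, with the build mm10 and no roles. How multimapping reads and strand were handled is not stated. Another 30 per-library columns (FPKM, TPM and the authors' normalized values) were not used, nor were columns of the authors' own comparisons, which hold fold changes and p-values. Columns were assigned to groups by name (B6 taken as WT), since their numbers do not match the sample titles.

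The deposited counts entered edgeR 4.0.16 under R 4.3.3 (default filter, TMM, quasi-likelihood test, 1 mean per group over all 10 libraries, 20472 genes), tested on simulated data. No pair of libraries within a group agreed within sampling noise (mean chi-square per gene 44.5 to 188). Genes, lists and comparisons were chosen with earlier results of these data known. Named are all members, Dnajc10, up to 4 called genes per list with the smallest adjusted p in DSS-treated KO against WT (up to 2 genes as values where none was called), and the 3 nearest profiles of each member whose log2 CPM averaged 0 or more. Markers beyond these are named as list members or because they were at 0. Mmp15 and A2m were named after their values were seen. Alternatives were RLE factors, library totals, DESeq2 1.42.0, no filter, at least 10 counts per library, fits of the compared groups, a replicate block, leaving out libraries, and the study's thresholds (p under 0.01, fold over 3). Leaving out libraries for the lists was added after the data were seen.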

Additional observations from a re-analysis of the deposited data

Results flagged for a closer look

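The response to DSS differed between KO and WT mice, by the interaction term of edgeR's quasi-likelihood fit, for 5 genes. The difference, KO minus WT on the log2 scale, was 4.70 for Mmp13 (edgeR adjusted p = 0.000813), 3.98 for Mmp10 (0.00171), 3.24 for Mmp12 (0.0118), 2.45 for Mmp3 (0.00909) and 0.87 for Mmp14 (0.0112).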

How the results depend on the processing

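In DSS-treated KO against WT mice, 6 to 7 of the genes were called with any 1 library left out, in DSS-treated against untreated KO mice 6 to 9. The interaction count was 8 with DESeq2 and 5 to 6 with a library left out. In WT mice the count was 2 with DESeq2 and 1 by the study's thresholds. Between untreated groups it was 1 with DESeq2 (Mmp10), 1 with a fit of only these groups (Mmp14) and 0 to 1 with a library left out. DESeq2 gave no adjusted p for Mmp8 in DSS-treated KO against WT mice. Uncalled log2 values that changed sign were those of Mmp10 in WT mice (-0.018 with library totals, -0.091 with the replicate block, and -0.021 to 0.080 with a library left out), Mmp14 in WT mice (0.026 with the block), Timp1 in WT mice (-0.17 to 1.35 with a library left out), Mmp2 in KO mice (0.058 with the block) and its interaction (0.38 with the block, -0.58 to 0.45 with a library left out), and, between untreated groups, Mmp3 (-0.27 to 0.69) and Mmp9 (-0.67 to 0.82) with a library left out. Their causes were not tested. Library totals shifted the median of all genes in KO mice from 0.02 to -0.08 and the genes higher and lower from 4730 and 4570 to 3708 and 5055. Between DSS-treated groups the split went from 3048 and 3048 to 2292 and 3288.

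Nothing states whether library numbers pair the samples, and the check made here cannot decide it. Deviations from the group mean in same-numbered libraries of different groups correlated at -0.14 to 0.16 over 10 pairs. Of 9 libraries, 4 matched their own number best. In groups of 2 libraries these deviations mirror each other, so the correlations are not independent. With the number as a block, Mmp12 lost its call in KO mice (edgeR adjusted p = 0.0569), which left 8, and the genes called in all fell from 6096 to 3622 in DSS-treated KO against WT mice. Groups of 2 and 3 libraries, and low counts outside DSS-treated KO mice, limit these values.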
